A study of Mus musculus with 3 samples.

Results

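The miR-290 to miR-295 locus of mouse embryonic stem cells held 11 of the 7975 peaks that the series lists for tagged Foxd3, a forkhead transcription factor. Members were all peaks of either list that overlapped chromosome 7, 3150000 to 3280000 (mm9), a window of 130 kb. They were 5 of the 3406 peaks from the anti-HA precipitation and 6 of the 4569 from the anti-Flag precipitation. The window was chosen by the number and width of the peaks listed there, so the counts, widths and spacing given here are descriptions and carry no test.

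The cells were LF2 mouse embryonic stem cells transduced with a pTrip lentivirus that carries FH-Foxd3, a Foxd3 with a Flag and an HA tag, and selected with neomycin. The label describes the tagged protein as made at a level close to that of the cells' own Foxd3, and all 3 samples are of this line, grown without feeder cells in serum and LIF. The 3 samples were 1 precipitation with anti-HA, 1 with anti-Flag and 1 input of total genomic DNA. Each antibody is thus represented by 1 library, and the input and cells without the tag were not analysed here. The labels name neither the promoter that drives the tagged gene nor whether the line is a single clone.

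The miR-290 to miR-295 cluster is a set of microRNA hairpins, and those on the plus strand are cut from a shared primary transcript. The cluster is among the most abundant sources of microRNAs in mouse embryonic stem cells. Each hairpin is processed to a mature strand from its 5p or 3p arm, and a mature microRNA recognises target messages mainly through its seed, bases 2 to 8 from the 5′ end. The cluster is best known for a seed with the letters AAGUGC, which it shares with the miR-302 family, and for supporting the rapid cell cycle of pluripotent cells. Foxd3 is a regulator of pluripotency in these cells and of neural crest development later in the embryo.

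All 6 named microRNA genes were matched in the RefSeq microRNA table (GRCm38.p6), Mir292a under the symbol Mir292. The table lists 9 microRNA genes across the cluster, with 17 mature sequences of 21 to 24 bases. The 3p strands from the plus strand are shown, with the seed in capitals. Most of them carry a seed with the letters AAGUGC, for which the cluster is known, and miR-292a-3p is named only.
mmu-miR-291a-3p: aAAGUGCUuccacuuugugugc
mmu-miR-294-3p: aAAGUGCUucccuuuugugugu
mmu-miR-295-3p: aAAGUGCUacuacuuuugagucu
mmu-miR-290a-3p: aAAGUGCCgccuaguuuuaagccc
mmu-miR-291b-3p: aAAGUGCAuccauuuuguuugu
mmu-miR-293-3p: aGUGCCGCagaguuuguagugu

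The first 3 of these share the seed AAGUGCU. In the same table mmu-miR-302b-3p and mmu-miR-302d-3p also carry it. The seed of miR-290a-3p is AAGUGCC and that of miR-291b-3p is AAGUGCA. The seed of miR-293-3p, GUGCCGC, is unlike these, although all 6 strands shown hold the letters AGUGC.

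The 5p strands fall into seed groups of their own. The 3 shown here, again with the seed in capitals, share CUCAAAC, which no other mature entry of the table holds at this place.
mmu-miR-290a-5p: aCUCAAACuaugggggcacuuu
mmu-miR-292a-5p: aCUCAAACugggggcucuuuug
mmu-miR-293-5p: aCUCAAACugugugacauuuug
Another 5p seed, AUCAAAG, is common to miR-291a-5p and miR-291b-5p. The seed CUCAAAA is common to miR-294-5p and miR-292b-5p, the latter from the minus strand.

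The table places 6 of its 8 cluster hairpins on the plus strand. The other 2, Mir290b and Mir292b, are on the minus strand and lie across Mir290a and Mir292. Mir290a comes first, with a hairpin of 83 bases, followed by Mir291a, Mir292 (82 bases), Mir291b (79 bases), Mir293 (80 bases), Mir294 (84 bases) and Mir295 (69 bases). From the first to the last hairpin the cluster spans 2216 bp in GRCm38.p6. In that assembly the cluster is overlapped by Nlrp12, a gene of the NLR family of innate immune proteins, and by the long noncoding RNA gene D7Ertd143e. The gene order before it is Gm29708, AU018091 and Gm3375, and after it Gm20553, Gm5340 and Myadm. Of these, AU018091 and Myadm are protein-coding and the others are pseudogenes. No position was carried from that assembly to mm9, and the peaks below were not assigned to an exon, intron or promoter.

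In mm9 the cluster lies at about 3.218 to 3.221 Mb of chromosome 7, a position rounded to the nearest kb. The 11 peaks formed 7 sites between 3193108 and 3222740. Of these sites 4 were in both lists, 1 was in the HA list alone and 2 were in the Flag list alone. Only the last site reached the cluster, and the other 6 ended between 24.2 and 3.97 kb before its stated start, on the low-coordinate side. No peak of either list lay in the window beyond that last site.

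**Figure D1:**
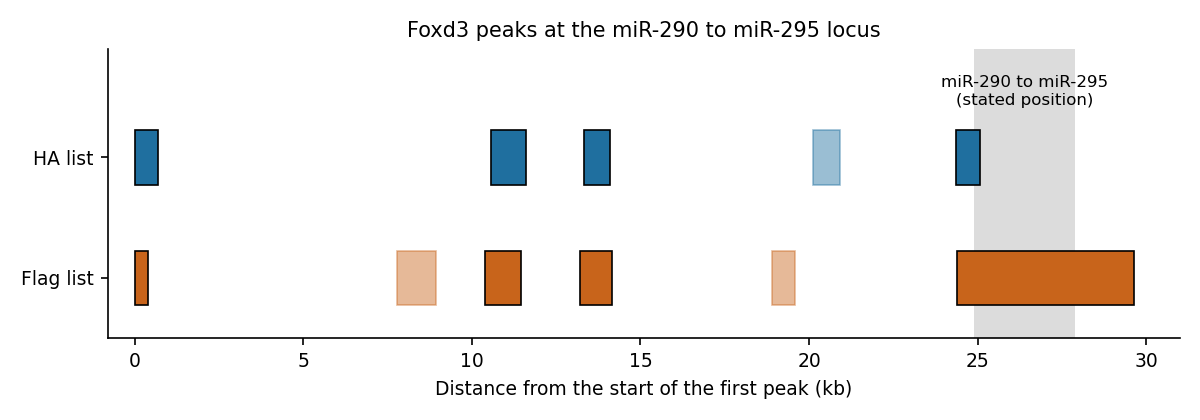
Peaks of the HA list (blue) and the Flag list (orange) along the locus, against distance in kb from the start of the first peak; bars are drawn to scale, outlined where the peak overlaps one of the other list and pale where it does not. The grey band is the stated position of the microRNA cluster, which the 5241 bp Flag peak covers and the 721 bp HA peak only reaches.

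The peak at the cluster itself was the point at which the lists differed most in extent. With the Flag antibody it ran from 3217500 to 3222740, a width of 5241 bp. It began 500 bp before the stated start of the cluster and ended 1740 bp past its stated end, so the whole stated interval lay inside it. With the HA antibody the overlapping peak ran from 3217470 to 3218190, a width of 721 bp. The HA peak ended 190 bp past the stated start, which is less than the rounding of that position, so its end cannot be placed before or after the first hairpin.

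The left edges of this pair were 30 bp apart and the right edges 4550 bp apart. The shared stretch of 691 bp was 95.8% of the HA peak and 13.2% of the Flag peak. The remaining 4550 bp of the Flag peak, with the stated cluster interval past its first 190 bp, had no HA peak. A list entry gives no height, so a signal below the authors' threshold in the HA library cannot be told apart from none.

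No other Flag peak was as wide. The next widest measured 2985 bp, so the peak over the cluster was 1.76 times as wide, and it was 2.47 times as wide as the widest HA peak of the series (2121 bp). Only 16 Flag peaks and 3 HA peaks were wider than 2 kb. Across the 2474 overlaps between a single HA peak and a single Flag peak, the median ratio of Flag width to HA width was 0.992. The pair at the cluster had the highest ratio, 7.27, and the next pair in that order had 3.66. Its centres were 2290 bp apart, the farthest of all pairs, against a median of 50.5 bp.

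**Figure D2:**
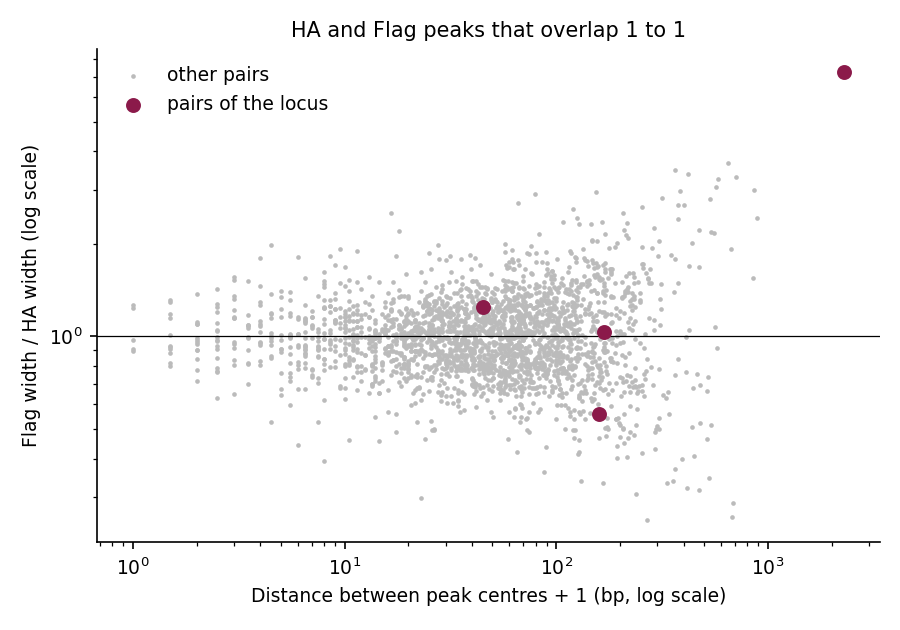
Each point is a pair of 1 HA and 1 Flag peak that overlap, with the distance between centres plus 1 bp (log axis) against the ratio of Flag to HA width (log axis); the horizontal line marks equal widths. Of the 4 pairs of the locus (dark red), 3 lie within the cloud of the other pairs and the pair at the microRNA cluster stands alone at 2290 bp and 7.27.

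Nearest to the cluster on its low-coordinate side were 2 peaks that did not meet. An HA peak of 791 bp lay at 3213236 to 3214026, and a Flag peak of 691 bp at 3211996 to 3212686. They were separated by 549 bp, and neither overlapped a peak of the other list. Over all peaks found in a single list such close misses were uncommon. A peak of the other list lay within 1 kb of 27 of the 910 HA-only peaks (2.97%) and 48 of the 2072 Flag-only peaks (2.32%). The share among closely spaced peaks, as at this locus, was not examined. The HA peak stood at line 717 of its list, in the first 21.1% of lines, while the Flag peak stood at line 3223 (70.5%). Shared HA peaks of the locus stood at 17.3%, 69%, 51.6% and 64.2% of lines, by position. Their Flag partners stood at 42.2%, 70.6%, 47.8% and 40.9%. What the order of lines means is not given in the sources used here.

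Farther out came a pair of neighbouring sites found with both antibodies. The nearer one, at 11.2 kb before the cluster, was the closest match of the locus. Its HA peak of 771 bp (3206440 to 3207210) lay wholly inside a Flag peak of 959 bp (3206302 to 3207260), with centres 44 bp apart. The next, at 13.9 kb before the cluster, had an HA peak of 1035 bp (3203676 to 3204710) and a Flag peak of 1066 bp (3203493 to 3204558). These were nearly equal in width, with a ratio of 1.03, but the Flag peak was displaced towards lower coordinates at both edges, by 183 and 152 bp. Their centres were 167.5 bp apart, and 89.7% of all pairs in the series had closer centres. The HA peak of this site was the widest of the 5, and 93.3% of the HA list was narrower.

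A Flag-only site of 1161 bp, at 3200893 to 3202053, lay 16.5 kb before the cluster. It was the second widest Flag peak of the locus, and 96.2% of the Flag list was narrower, yet it stood at line 4296, in the last part of the list (94%). The nearest HA peak was 1622 bp away. A wide Flag peak without an HA peak was thus listed within the same run of sites as peaks found with both antibodies.

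The outermost site was 24.6 kb before the cluster. Its HA peak measured 671 bp (3193118 to 3193788) and its Flag peak 376 bp (3193108 to 3193483). Here the left edges were 10 bp apart, and it was the Flag peak that stopped short, by 305 bp on the right. The ratio of Flag to HA width was 0.56, and this was the single peak of the locus below the median width of its list. At this site and at the cluster the lists therefore placed the left edge within 30 bp of each other and differed at the right edge, in opposite directions.

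Apart from that Flag peak, the peaks of the locus were wide for their lists. All 5 HA peaks were above the HA median of 547 bp, with a median of 771 bp and a range of 671 to 1035 bp. Of the 6 Flag peaks, 5 were above the Flag median of 490 bp, with a median of 1012.5 bp and a range of 376 to 5241 bp. Peaks in the same stretch of chromatin come from the same library and are not replicates, so no spread between cultures stands behind these values.

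**Figure D3:**
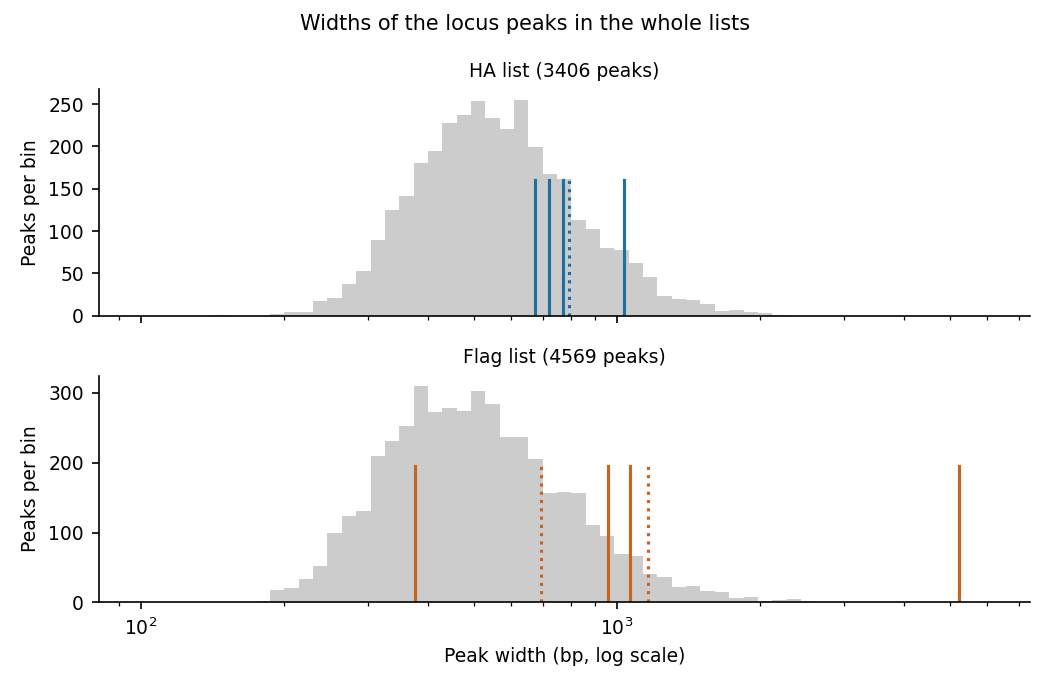
Width of all peaks of each list (grey bars, number of peaks per bin, log axis in bp) with the peaks of the locus as vertical lines, solid where the peak overlaps one of the other list and dotted where it does not. The 5 HA lines lie between 671 and 1035 bp; of the 6 Flag lines 1 lies at 376 bp, 4 between 691 and 1161 bp and 1 at 5241 bp, beyond the rest of the list.

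By number, 4 of the 5 HA peaks overlapped a Flag peak by at least 1 bp, where 73.3% of all HA peaks did (95% Wilson interval 71.8 to 74.7, counting error only). From the other side, 4 of the 6 Flag peaks overlapped an HA peak, where 54.7% of all Flag peaks did (53.2 to 56.1). With so few peaks these shares cannot be set apart from the lists as a whole. By length, the HA peaks covered 3989 bp and the Flag peaks 9494 bp, with 2711 bp in common. The common bases were 68% of the HA bases and 28.6% of the Flag bases of the locus, against 63.4% and 51% over the series. The single peak over the cluster made up 55.2% of the Flag bases. Without it the Flag list covered 4253 bp, and common bases were 32.5% of those covered by either list, compared with 25.2% with it and 39.4% over the series. The HA peak that it overlaps was kept in this setting. Its 691 bp in common with the wide peak therefore counted as HA alone, which lowers the 32.5%.

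The sites were closely spaced. The HA peaks spanned 25.1 kb, with gaps of 1729 to 9887 bp between neighbours, and the Flag peaks 29.6 kb, with gaps of 1439 to 7409 bp. Over the whole lists the median gap between neighbouring peaks was 306 kb for HA and 219 kb for Flag, and 7.62% and 7.5% of gaps were under 10 kb. Past the last site the next peaks were at 3347837 to 3348744 in HA and 3347488 to 3348479 in Flag, a site found with both antibodies. It was 130 kb beyond the last HA peak and 125 kb beyond the last Flag peak of the locus. No peak of either list lay between the start of the chromosome and the first site. How much of that stretch can be mapped was not examined, so this is not a measure of how isolated the locus is.

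Windows of 130 kb laid end to end, from the start of each chromosome to its last listed peak, give the background for this number of peaks. Stretches that cannot be mapped were not left out. Of 20146 windows, 16 (0.0794%) held at least 5 HA peaks and 10 (0.0496%) held at least 6 Flag peaks. Only 3986 of the windows held a peak of either list, so most of the windows behind these shares were empty. Both conditions were met in 6 windows, including the one that holds this locus. Linking peaks less than 10 kb apart put all 5 HA peaks into 1 group and all 6 Flag peaks into another. The outermost HA peak was linked across a gap of 9887 bp, just under that limit. Of the 26 HA groups with 3 or more peaks, 1 held more than the locus, and the same was true of the 37 such Flag groups.

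The group with more peaks lay on chromosome 11 (3054527 to 3100146), with 9 HA and 7 Flag peaks over 45.6 kb. The other groups compared were the next fullest after the microRNA locus, a group on chromosome 14 (76393425 to 76404881), with 4 and 4 peaks over 11.5 kb, and a group on chromosome 1 (72289191 to 72312616), with 3 and 4 peaks over 23.4 kb. The latter was 1 of 6 groups with 7 peaks and was taken because it covered the most bases. On chromosome 11, as at the microRNA locus, only part of the peaks were shared, 4 of 9 in HA and 4 of 7 in Flag, and common bases were 26.7% of those covered by either list. On chromosome 14 all 8 peaks were shared and 64.5% of bases were common. On chromosome 1 all 3 HA peaks and 3 of the 4 Flag peaks were shared, and 49.4% of bases were common. The widest Flag peak of these groups was 2664, 793 and 1604 bp, in that order. Flag covered 2.38 times as many bases as HA at the microRNA locus, and 1.27, 1.16 and 1.86 times as many in the other groups. Without the widest Flag peak the ratio at the microRNA locus was 1.07, and over the whole series it was 1.24. These differences were not tested, since the groups were ranked by the same peaks and have 1 library per antibody.

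**Figure D4:**
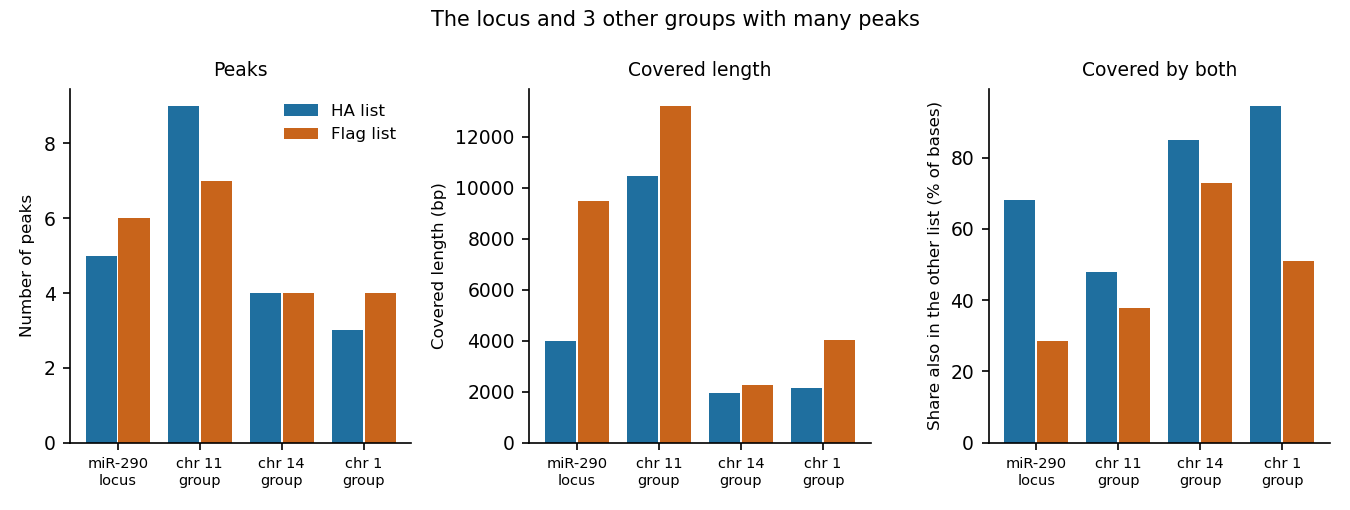
Number of peaks, covered length in bp and percent of covered bases also covered by the other list, for the microRNA locus and 3 other groups with many peaks (the chromosome 1 group is 1 of 6 tied at 7 peaks), in the HA list (blue bars) and the Flag list (orange bars); each bar is 1 library. At the microRNA locus 68% of the HA bases but 28.6% of the Flag bases are also in the other list.

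Because the peaks could not be read as mm9 sequence here, letters of forkhead motifs were looked for in the hairpins, which the stated position puts inside the wide Flag peak. The first motif searched was TGTTTAC. Another was TGTTTAT, and the last was TGTTTGT. Both strands were searched for each, and none of the 8 hairpins searched held more than 1 match. Mir291a was not searched. Mir290b and Mir292b lie across Mir290a and Mir292, so the 8 hairpins are not separate stretches of DNA. Of these 8 hairpins 1 held such letters, Mir291b, with TGTTTGT on its own strand, shown in capitals as RNA.
Mir291b: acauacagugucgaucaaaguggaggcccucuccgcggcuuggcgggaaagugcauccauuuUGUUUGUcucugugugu
Over the 1005 hairpins of the table, 33 (3.28%) held at least 1 of the motifs. The letters in Mir291b are also the last 7 of mature miR-291b-3p. A match is a description of the sequence and not a binding site, and the sequence between the hairpins and at the other 6 sites was not searched.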

How the data were processed

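As deposited by the authors, each antibody has a list of peak positions in mm9, per the submitters' processing notes. Each line holds 3 values: chromosome, start and end, and no height, fold, p-value or count. For the aligner, peak caller, threshold and use of the input, the methods were not given in the sources used here, and read depth is unknown. A threshold can decide which weak sites are listed and where a peak ends; its part in these lists was not tested.

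Starts were converted to 1-based positions. A peak was counted as shared from 1 bp of overlap, and overlap counts equalled those of bedtools 2.31.1. Peaks less than 10 kb apart were linked into groups. The overlap and grouping code was tested on simulated data. Intervals are 95% Wilson intervals (scipy 1.17.1, Python 3.11.15; figures with matplotlib 3.10.9). Sequences are from RefSeq (GRCm38.p6).

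The locus, its members and the lists were chosen with earlier results of these data known. All peaks of the window were described, with the nearest peaks outside, 3 neighbouring genes on each side and 3 other groups with the most peaks, where a tie was broken by covered length. No test over samples was possible with 1 library per antibody. Alternatives varied the overlap rule, the peaks kept, the linking distance and the window positions. Promoter windows of the microRNA genes were not analysed here; the search of hairpins was added after the data were seen.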

Additional observations from a re-analysis of the deposited data

How the results depend on the processing

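Of 23 alternative values, 16 stayed within 1.5 times the value given above. The count of shared peaks moved when centres had to lie within 100 bp of each other, which left 1 HA and 1 Flag peak, the pair at 11.2 kb before the cluster. Keeping the first 50% of lines of each list left 2 HA and 3 Flag peaks in the locus, of which 1 in each list was shared. In that setting the group over the cluster held 0 HA peaks and 1 Flag peak. Fewer peaks enter this setting by construction. With a linking distance of 5 kb the group held 2 HA peaks in place of 5, since the gap of 6025 bp before them is no longer bridged. The setting without the widest Flag peak and the search on the given strand of the hairpins were chosen after the data were seen. No paired analysis was possible because the series has a single library for either antibody, and no replicate could be left out. The planned search of promoter windows was not run. The lists give no depth, which leaves weaker signal at these sites without an upper bound.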
